A study of Homo sapiens with 9 samples.

Results

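The low dose of TP-472 was compared with its vehicle in A375 cells, a human melanoma line with a mutation in BRAF. Of the 9 libraries of the series, the 6 compared here were 3 from cells kept in DMSO and 3 from cells treated with 5 µM TP-472, all collected at 24 h, and the 3 libraries at 10 µM served to show which changes grew with dose. No library carried a genetic change beyond those of the line itself, every library came from this single line, and the series' design calls the libraries of a group biological replicates. The members were all genes of the count table, of which 16417 of 26475 had enough counts to be tested.

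TP-472 binds the bromodomains of BRD9 and BRD7, which read acetylated lysines on histones. BRD9 belongs to the non-canonical form of the SWI/SNF chromatin remodelling complex and BRD7 to the PBAF form, and both complexes open chromatin at promoters and enhancers. The question was which gene programmes already answered the lower dose. Among the programmes examined, the p53 response is the set of genes that the tumor suppressor p53 switches on after damage or stress, hypoxia genes are those driven by HIF when oxygen is short, and the extracellular matrix genes encode collagens, glycoproteins and their receptors, through which melanoma cells attach and move.

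The libraries held 42483091 to 51298130 expected counts each. Ribosomal RNA genes took 8.79% to 10.9% of the counts in DMSO and 10.6% to 16.6% at 5 µM, the highest share at 5 µM being that of replicate 1, whose counts also differed more from the other 2 libraries of its group than those did from each other. The counts of replicate 1 at 10 µM also differed more from the rest of its group, although its ribosomal share was the lowest there. The summed level of 8 melanocyte markers was 450 to 469 CPM, a count scaled to library size, in DMSO and 452 to 463 CPM at 5 µM, although only 4 of the 8 reached 1 CPM. SOX10 made up most of that sum, at 404 to 426 CPM in DMSO and 405 to 420 CPM at 5 µM, while TYR and DCT were at 0. A set of 6 leukocyte and endothelial markers summed to at most 3.25 CPM in any of the 6 libraries, with CD3E at 0, while a wider list of 10 such genes summed to 63.1 to 67.5 CPM in DMSO and 92.0 to 92.2 CPM at 5 µM, with 1 of its 7 tested members called higher. The BRD9 level was 38.6, 37.5 and 36.6 CPM in DMSO and 46.2, 41.4 and 37.3 CPM at 5 µM, and that of BRD7 was 87.7, 88.0 and 88.4 CPM against 84.5, 84.2 and 82.2 CPM. Neither target gene passed the test, with log2 fold changes of 0.15 ± 0.11 (SE, adjusted p = 0.466) and -0.08 ± 0.09 (SE, adjusted p = 0.681).

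At 5 µM, 352 genes were upregulated and 447 were downregulated, where a call needed a change of 1.5-fold or more and p under 0.05 after Benjamini-Hochberg adjustment in edgeR's quasi-likelihood test. These were 2.14% and 2.72% of the genes tested, the background for each group of genes described here. In bulk RNA, fewer cells that express a gene and less RNA of it in each cell cannot be told apart. The median log2 fold change was 1.02 over the upregulated genes and -0.82 over the downregulated genes, while the median over all genes tested was 0.0054. With the adjusted p as the only limit the counts were 722 and 954. Protein-coding genes made up 315 of the upregulated and 420 of the downregulated genes, 2.23% and 2.98% of the 14108 tested. Long non-coding RNAs made up 9 and 10, or 1.13% and 1.26% of the 793 tested. By level, 155 of the 3764 genes between 1 and 10 CPM rose and 142 fell, whereas 21 of the 2041 genes above 100 CPM rose and 62 fell. Of the 2818 genes under 1 CPM, 48 rose and 7 fell. The counts moved with the libraries used. A fit of the 6 libraries alone gave 591 and 729, leaving out replicate 1 at 10 µM gave 575 and 666, and leaving out DMSO replicate 2 gave 197 and 283.

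**Figure D1:**
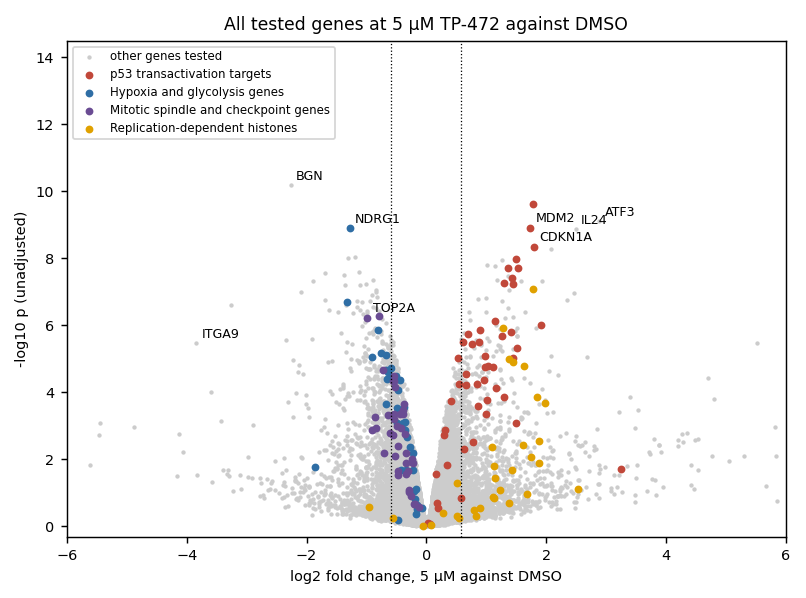
Log2 fold change at 5 µM against DMSO (horizontal axis) and -log10 of the unadjusted p (vertical axis) for the genes tested, with dotted lines at a fold change of 1.5. Members of 4 gene groups are coloured, 8 genes are named, and 11 genes with larger fold changes lie outside the axis; the p53 targets sit on the right and the hypoxia and mitotic genes on the left.

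Of the 61 gene groups, the p53 targets had the largest share of members called. Of 49 tested p53 transactivation targets, 36 rose, none fell and all 49 had a positive fold change, with a median log2 fold change of 0.98. The median of the members' log2(CPM + 0.5), set against the DMSO mean, lay between -0.016 and 0.002 in the DMSO libraries and between 0.847 and 0.943 at 5 µM; the groups did not overlap. Because the lists were drawn up with earlier results of these libraries known, their counts describe the data and are not independent evidence of direction.

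Cell cycle arrest and feedback genes were among the p53 targets that rose. CDKN1A encodes p21, the inhibitor of cyclin-dependent kinases through which p53 halts the cycle, and spans bases 36676460 to 36687339 of chromosome 6 in GRCh38 by GENCODE release 29. Its level was 162, 157 and 154 CPM in DMSO and 537, 549 and 561 CPM at 5 µM. The groups lay far apart, and the log2 fold change was 1.80 ± 0.10 (SE, adjusted p = 1.04e-05). MDM2, the ubiquitin ligase that removes p53, was at 100, 101 and 106 CPM in DMSO and 342, 332 and 342 CPM at 5 µM (log2 fold change 1.73 ± 0.08, SE, adjusted p = 3.62e-06). BTG2, an antiproliferative gene, rose from 20.9 ± 0.40 to 72.3 ± 2.34 CPM (SD, n = 3 each). PPM1D, a phosphatase that turns the p53 response off, and TRIAP1, a p53-regulated inhibitor of apoptosis, rose with log2 fold changes of 0.90 and 0.89. GADD45A, a stress gene that slows cycling, was at 36.3, 32.2 and 31.3 CPM in DMSO and 100, 104 and 93.9 CPM at 5 µM, a log2 fold change of 1.58 ± 0.11 (SE, adjusted p = 3.02e-05). GADD45B had a mean of 9.36 ± 0.35 CPM in vehicle and 12.1 ± 1.26 CPM with the drug (SD, n = 3 each) and did not pass (adjusted p = 0.0914).

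Of 7 CDK inhibitors tested, CDKN1A rose and 4 fell, or 3 when any 1 DMSO or 5 µM library was left out. CDKN1B, which encodes p27, dropped from 59.4, 55.4 and 55.7 CPM to 35.1, 36.5 and 35.6 CPM, with no overlap (log2 fold change -0.67 ± 0.08, SE, adjusted p = 0.000957). CDKN2C, which encodes p18, fell with a log2 fold change of -0.94 ± 0.12 (SE, adjusted p = 0.00139), and CDKN1C and CDKN3 fell with -1.30 and -0.65. CDKN1C encodes p57, whereas CDKN3 is a phosphatase of CDK2 that is itself expressed in dividing cells.

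Some apoptosis genes rose. Of 9 death receptors, 3 rose and none fell. EDA2R, a receptor of the TNF family that was also among the p53 targets, went from 11, 11.9 and 12.8 CPM to 34.5, 33.9 and 34.7 CPM. FAS, the classical death receptor, was at 16.4, 19.2 and 17.7 CPM against 43.2, 40.3 and 47.1 CPM. TNFRSF10B, a receptor for TRAIL, changed less, with a log2 fold change of 0.61 ± 0.07 (SE, adjusted p = 0.000459). All 3 rose without overlap between the groups, but they were named by small p or as called, so this adds no separate evidence. Among 8 pore-forming and survival genes of the BCL2 family only BAX, which permeabilizes the mitochondrial outer membrane, rose, from 111, 102 and 102 CPM to 240, 226 and 218 CPM (log2 fold change 1.12 ± 0.15, SE, adjusted p = 0.00128). Of 10 BH3-only genes, which trigger BAX, BBC3 (PUMA) rose from 12.8, 13.2 and 13 CPM to 24.3, 31.1 and 24.0 CPM, while BNIP3 and BNIP3L, which are also hypoxia genes, fell. Neither fall was called without 5 µM replicate 2 or with upper-quartile scaling, and only 1 BH3-only gene fell without DMSO replicate 2 or 3. None of the 16 genes of caspases and the apoptosome was called, and 1 of them passed the adjusted p alone.

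Some genes of the DNA repair and metabolic branches of the p53 response rose too. The gene lists share members, so these are not all further genes: RRM2B and SESN1 were also among the p53 targets. RRM2B, the ribonucleotide reductase subunit that p53 induces, was at 62.9, 65.9 and 63.7 CPM in DMSO and 159, 150 and 152 CPM at 5 µM. DDB2 and XPC, which recognise damaged bases in nucleotide excision repair, rose with log2 fold changes of 0.99 ± 0.13 and 0.65 ± 0.09 (SE), and these 3 were the genes that rose among 12 p53-linked repair genes. Over the 12 the median log2 fold change was 0.12, with 8 positive and 4 negative. 30.4% of the exonic length of XPC lies opposite exons of LSM3 and other genes; the sources used here do not say whether reads were counted by strand. SESN1 and SESN2, sensors that restrain mTORC1, rose from 14.3 ± 0.76 to 40.2 ± 2.68 CPM and from 14.9 ± 0.72 to 40.5 ± 3.02 CPM (SD, n = 3 each). TIGAR, which lowers glycolytic flux, rose with a log2 fold change of 1.36 ± 0.08 (SE, adjusted p = 1.91e-05). In all, 4 of 14 sestrins and metabolic p53 targets rose and none fell.

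**Figure D2:**
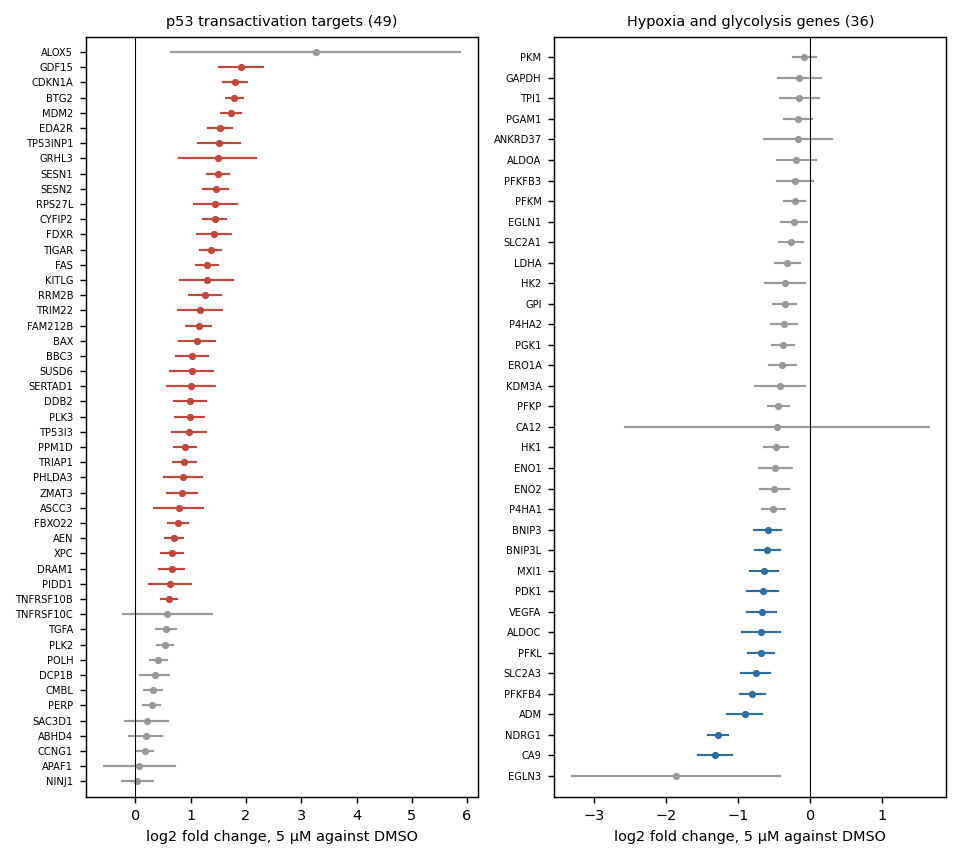
Log2 fold change at 5 µM against DMSO (horizontal axis) with its 95% interval for each of the 49 p53 transactivation targets and the 36 hypoxia and glycolysis genes. Upregulated genes are red, downregulated genes blue and genes not called grey; 36 p53 targets are red, 12 hypoxia genes are blue, and every point lies on the side of its group.

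Hypoxia and glycolysis genes moved the other way as a group. Of 36 tested, 12 fell, none rose and all 36 had a negative fold change, with a median log2 fold change of -0.45. The median over the members lay between -0.433 and -0.459 in the 3 libraries at 5 µM and between -0.01 and 0.016 in DMSO. NDRG1, a stress-responsive gene of the HIF programme, was at 511, 514 and 501 CPM in DMSO and 210, 214 and 206 CPM at 5 µM (log2 fold change -1.28 ± 0.06, SE, adjusted p = 3.62e-06). CA9, the carbonic anhydrase that exports acid from hypoxic cells, was at 79.5, 81.5 and 83.5 CPM against 34.4, 30.9 and 32.2 CPM (log2 fold change -1.33 ± 0.11, SE, adjusted p = 6.73e-05), and 38.5% of its exonic length lies opposite an exon of ARHGEF39. PFKFB4, a regulator of glycolysis, fell from 179 ± 5.06 to 103 ± 7.03 CPM (SD, n = 3 each). BNIP3, a mitophagy receptor, was at 219, 234 and 227 CPM in DMSO and 156, 147 and 150 CPM at 5 µM, just past the fold limit with a log2 fold change of -0.59 ± 0.08 (SE, adjusted p = 0.00204). The glycolytic enzymes GAPDH, PKM and TPI1 had log2 fold changes of -0.15, -0.08 and -0.15 and were not called. These enzymes were picked after their values were seen. HILPDA, a lipid droplet protein induced in hypoxia but not on the list, fell from 29.8, 31.8 and 28.6 CPM to 10.2, 10.9 and 11.2 CPM.

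HIF binds the core ACGTG. In the 250 bases before the RefSeq start, 14 of the 32 members with an entry held it on either strand, against 18.7% of all 27305 promoters and 12 of 33 promoters of the mitotic genes described next, and it was found in 3 of the 8 downregulated members with an entry. The upstream bases of BNIP3 on chr10:131982014-131982173, minus strand, are shown (RefSeq, GRCh38.p14). Not every chromosome was eligible for display, and at least 100 bases had to lie outside the annotated gene. Within these limits, BNIP3 was the downregulated member with the smallest p that kept the core outside the annotated gene. Downregulated members outside these limits were not considered, whatever their p. Capitals mark CACGTG, which holds the core once on each strand.
BNIP3: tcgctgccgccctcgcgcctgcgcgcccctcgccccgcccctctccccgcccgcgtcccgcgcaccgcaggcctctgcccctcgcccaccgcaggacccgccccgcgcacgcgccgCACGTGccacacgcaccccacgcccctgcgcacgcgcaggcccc

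Genes of cell division were lower in part. Of 40 mitotic spindle and checkpoint genes, 8 fell, none rose and all 40 had a negative log2 fold change, with a median of -0.47, and 23 passed the adjusted p alone. The median over the members was -0.445 to -0.462 in the 3 libraries at 5 µM and -0.012 to 0.013 in DMSO. TOP2A, the topoisomerase that untangles chromosomes before division, was at 501, 518 and 501 CPM in DMSO and 264, 253 and 252 CPM at 5 µM (log2 fold change -0.98 ± 0.09, SE, adjusted p = 0.000141). NUSAP1, which bundles spindle microtubules, was at 88.5, 92.2 and 92.4 CPM against 52.3, 50.3 and 55.2 CPM. CDK1, the kinase that drives entry into mitosis, fell from 86.7 ± 3.75 to 52.4 ± 2.93 CPM (SD, n = 3 each, adjusted p = 0.00141). Of 42 genes of DNA replication, 7 fell and none rose, among them MCM2 and MCM5 of the replicative helicase, with log2 fold changes of -0.61 and -0.65. With any 1 DMSO or 5 µM library left out, 3 to 6 mitotic genes and 3 to 5 replication genes were called, the fewest without DMSO replicate 3. CCND1, the G1 cyclin, rose from 621, 622 and 627 CPM to 977, 1001 and 975 CPM (log2 fold change 0.66 ± 0.08, SE, adjusted p = 0.000839).

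Promoters of genes expressed in G2 and mitosis often hold a CHR element (TTTGAA or TTTAAA) beside CCAAT boxes, which are read by the DREAM complex and NF-Y. Within 250 bases before the RefSeq start, 25 of the 33 mitotic members with an entry held a CHR element on either strand and 26 a CCAAT box, against 22.1% and 33.0% of all promoters. Among 38 p53 targets with an entry, 3 held a CHR element and 17 a CCAAT box, and 4 held a p53 half-site, against 5.53% of all promoters. A match is a description of the letters and not of a bound site. The upstream bases of TOP2A (chr17:40417951-40418146, minus strand) and CDK1 (chr10:60778081-60778330, plus strand) are shown as the downregulated mitotic genes with the smallest p that held both motifs outside the annotated gene (RefSeq, GRCh38.p14). The limits of chromosome and length were those used for BNIP3. Capitals mark both motifs on either strand, so that ATTGG is CCAAT on the other strand and TTCAAA is TTTGAA. The TOP2A stretch holds 2 CHR elements and 3 CCAAT boxes, and that of CDK1 holds 2 and 1.
TOP2A: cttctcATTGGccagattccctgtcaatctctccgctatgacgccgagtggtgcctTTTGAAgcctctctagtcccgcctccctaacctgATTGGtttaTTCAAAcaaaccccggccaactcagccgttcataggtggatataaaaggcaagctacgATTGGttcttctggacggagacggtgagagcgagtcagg
CDK1: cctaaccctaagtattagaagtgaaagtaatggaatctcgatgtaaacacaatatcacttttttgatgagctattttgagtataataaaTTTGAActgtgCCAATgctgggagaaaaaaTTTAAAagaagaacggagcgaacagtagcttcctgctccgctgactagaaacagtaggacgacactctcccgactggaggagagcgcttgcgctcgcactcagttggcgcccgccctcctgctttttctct

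Extracellular matrix genes were lower in selected members rather than as whole families. Of 32 collagen chains, 10 fell and 2 rose, and the median log2 fold change was -0.15. COL4A2, a chain of basement membrane collagen, was at 939, 946 and 949 CPM in DMSO and 490, 522 and 507 CPM at 5 µM (log2 fold change -0.90 ± 0.09, SE, adjusted p = 0.000295). COL6A1 and COL6A2, chains of the beaded-filament collagen VI, fell from 256 ± 2.79 to 154 ± 3.53 CPM and from 107 ± 2.78 to 43.1 ± 2.69 CPM (SD, n = 3 each). COL5A3 and COL17A1 were the 2 that rose, with log2 fold changes of 1.03 and 0.62. Of 41 matrix glycoproteins and proteoglycans, 12 fell and none rose. BGN, the proteoglycan biglycan that binds collagen, was at 91.1, 84.2 and 88.7 CPM against 17.5, 18.1 and 19.3 CPM, a log2 fold change of -2.26 ± 0.08 (SE, adjusted p = 1.08e-06). FN1, which encodes fibronectin, was at 770, 788 and 789 CPM against 370, 390 and 388 CPM (log2 fold change -1.03 ± 0.13, SE, adjusted p = 0.000957). SDC3, a syndecan, and TGFBI, a matrix protein bound by integrins, fell with log2 fold changes of -1.43 and -1.01.

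Enzymes and receptors around the matrix were also lower in part. Of 19 collagen-modifying enzymes 5 fell, none rose and 18 had a negative fold change, with a median log2 fold change of -0.36. Those that fell included LOXL3 and LOXL4, which crosslink collagen, at log2 fold changes of -1.35 ± 0.09 and -0.85 ± 0.06 (SE), and PCOLCE, which helps to trim procollagen, at -1.07. Matrix metallopeptidases divided, since 2 rose and 2 fell among 19 peptidases and inhibitors. MMP9, a gelatinase, was at 43.1, 43.7 and 43.0 CPM in DMSO and 10.6, 9.34 and 10.4 CPM at 5 µM, whereas MMP1, a collagenase, was at 6.94, 7.43 and 8.01 CPM against 14.8, 17.7 and 17.3 CPM. Of 24 integrin subunits, 5 fell and 1 rose. ITGB4, the hemidesmosome subunit, was at 1068, 1078 and 1080 CPM against 610, 625 and 588 CPM (log2 fold change -0.82 ± 0.08, SE, adjusted p = 0.000352). ITGA9 was low in every library, at 3.60, 3.23 and 2.65 CPM in DMSO and 0.131, 0.290 and 0.226 CPM at 5 µM, which made it the largest fall by the rule for named genes (log2 fold change -3.85 ± 0.42, SE). ITGB7 was the subunit that rose, and 42.1% of its exonic length lies opposite exons of ZNF740. LAMB1 was the only one of 11 laminin chains to be called, from 1136 ± 17.9 to 739 ± 18.5 CPM (SD, n = 3 each, adjusted p = 0.0146), and the call was lost when any 1 DMSO or 5 µM library was left out. Among 27 matrix genes that the study itself chose for display on these libraries, which makes their direction no independent evidence, 17 fell and none rose at 5 µM. CTSS, a cathepsin of that set, was at 14.9, 13.8 and 14.7 CPM in DMSO against 11.5, 8.77 and 7.04 CPM, and CTSB, another cathepsin, passed the adjusted p but had a log2 fold change of -0.52. Fibroblast markers, 2 of 6 of them reaching 1 CPM, summed to 26.1 to 27.2 CPM in DMSO and 16.2 to 18.3 CPM at 5 µM. Most of that sum was PDGFRB, at 22.2 to 23.4 CPM in DMSO and 11.8 to 13.3 CPM at 5 µM. LUM was at 2.18 to 2.56 CPM against 3.37 to 3.93 CPM and did not pass, and THY1 was at most 0.0946 CPM. The part of these markers in the matrix result was not tested.

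**Figure D3:**
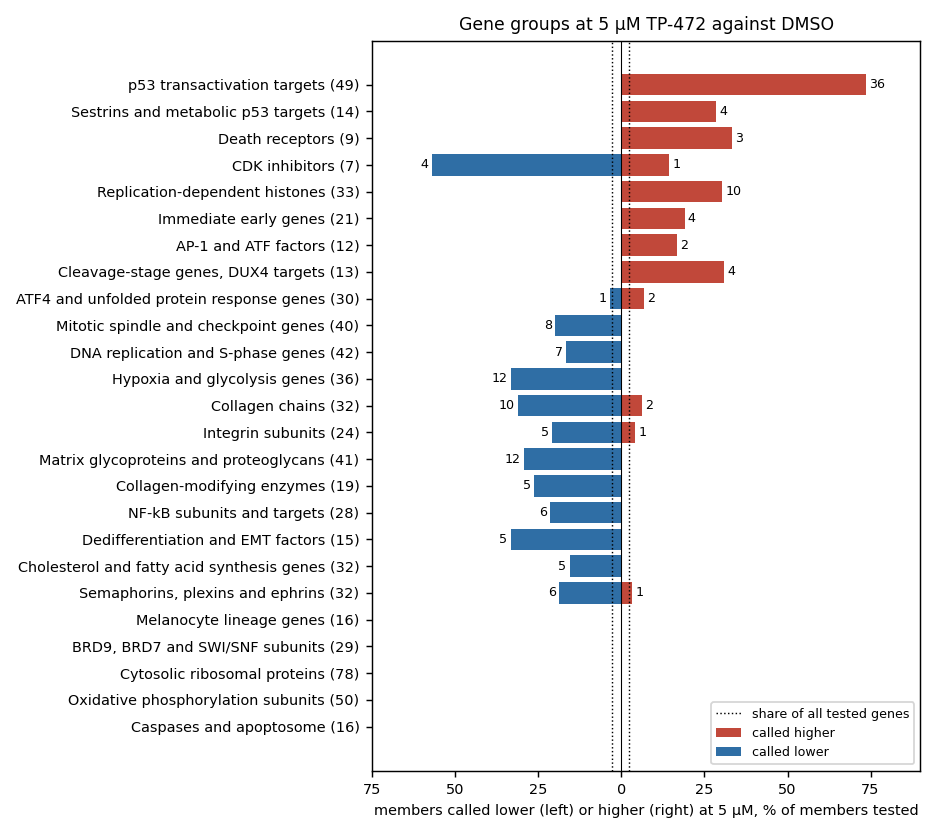
Share of the tested members of 25 gene groups called lower (left, blue) or higher (right, red) at 5 µM, in percent, with the number called beside each bar and the number tested in brackets. Dotted lines mark the shares over all genes, 2.72% lower and 2.14% higher; the bar of the p53 transactivation targets reaches 73.5%, and the bottom 5 groups have no call.

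Some inflammatory genes fell. Of 28 NF-kB subunits and targets 6 fell, none rose and 27 had a negative fold change, with a median log2 fold change of -0.42. CXCL8, which encodes the neutrophil chemokine interleukin 8, was at 376, 380 and 378 CPM in DMSO and 217, 205 and 213 CPM at 5 µM (log2 fold change -0.84 ± 0.06, SE, adjusted p = 4.20e-05). ICAM1, an adhesion molecule, was at 155, 159 and 160 CPM against 78.3, 87.2 and 86.7 CPM, and TNFAIP2 fell with a log2 fold change of -1.13 ± 0.07 (SE, adjusted p = 2.49e-05). The NF-kB motif GGGNNNTTCC was found within 250 bases before the start of 11 of 24 members with an entry, against 5.61% of all promoters, but in none of the 5 downregulated members with an entry. Of 35 interferon-stimulated genes 3 fell and 1 rose, but 1 or 2 fell when any 1 DMSO or 5 µM library was left out, with IFITM1 at 3.20, 2.14 and 2.65 CPM in DMSO and 0.745, 0.736 and 0.493 CPM at 5 µM. None of the 18 genes of MHC class I presentation was called. Of 15 dedifferentiation and EMT factors, 5 fell, among them the neural crest gene NGFR (85.6, 84.9 and 86.2 CPM against 33.7, 46.0 and 44.9 CPM), SOX9 and NES. None of 16 melanocyte lineage genes was called, and none passed the adjusted p.

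Lipid synthesis genes fell in part. Of 32 genes of cholesterol and fatty acid synthesis 5 fell and none rose. SCD, which desaturates fatty acids, was at 473, 491 and 487 CPM in DMSO and 220, 214 and 219 CPM at 5 µM (log2 fold change -1.15 ± 0.09, SE, adjusted p = 8.80e-05). SREBF1, the transcription factor of lipogenesis, fell with a log2 fold change of -0.80.

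Replication-dependent histone genes were higher, although many were close to the detection limit. Of 57 listed, 33 could be tested, and 10 of these rose and none fell, with a median log2 fold change of 1.14. The filter used all 3 groups, so members nearly absent in DMSO could pass it through the treated libraries. This favours rises among the members tested. The median of the members' log2(CPM + 0.5), set against the DMSO mean, was -0.043 to 0.062 in DMSO and 0.494 to 0.639 at 5 µM. HIST1H1C, a linker histone, was at 16.1, 15.4 and 14.7 CPM in DMSO and 43.8, 38.4 and 38.8 CPM at 5 µM (log2 fold change 1.39 ± 0.17, SE, adjusted p = 0.000934). HIST2H2BE was at 4.81, 5.31 and 6.29 CPM against 17.2, 19.5 and 19.4 CPM, and HIST1H2AC at 3.96, 3.93 and 4.30 CPM against 8.54, 10.8 and 10.3 CPM. The groups did not overlap for any of these genes, which were named by small p or as called, so this adds no separate evidence. The number called was 6 with limma-voom, 7 or 8 with any 1 DMSO or 5 µM library left out, and 15 in the fit of the 6 libraries alone. Transcripts of most of these genes end without a poly(A) tail, and the sources differ on whether the RNA was selected on oligo-dT or depleted of ribosomal RNA, so the values are levels as captured.

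Stress-induced early genes rose in a small number. Of 21 immediate early genes 4 rose and none fell. EGR1, a zinc finger factor induced within minutes of a stimulus, was at 6.14, 7.76 and 5.91 CPM in DMSO and 29.5, 29 and 25.7 CPM at 5 µM (log2 fold change 2.09 ± 0.11, SE, adjusted p = 1.08e-05). ARC, an early gene of the cytoskeleton, was at 1.65, 1.01 and 1.30 CPM against 6.77, 7.80 and 7.39 CPM, and NR4A1, an orphan nuclear receptor, rose with a log2 fold change of 1.26 ± 0.07 (SE). Among 12 AP-1 and ATF factors 2 rose. ATF3, a repressor induced by many stresses, was at 3.64, 3.66 and 2.79 CPM against 26.5, 22.1 and 26.2 CPM (log2 fold change 2.88 ± 0.13, SE, adjusted p = 3.62e-06), and FOSB rose with 1.45 ± 0.13 (SE). Of 30 genes of ATF4 and the unfolded protein response, 2 rose and 1 fell. Of 20 listed cleavage-stage genes that DUX4 can switch on, 13 could be tested. As with the histones, members nearly absent in DMSO could pass the filter through the treated libraries, which favours rises. Among the 13 tested, 4 rose, but 3 of these were under 1.5 CPM in all libraries of both groups. Only 1 was called with limma-voom, and 1 or 2 when any 1 DMSO or 5 µM library was left out. ZSCAN4 was at 0.141, 0.062 and 0.095 CPM in DMSO and 0.942, 1.03 and 0.226 CPM at 5 µM, and was called in 12 of 18 alternative fits. These genes have near-identical copies between which counts can be split.

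Housekeeping programmes gave no calls. None of 78 cytosolic ribosomal proteins, 35 ribosome biogenesis genes, 50 subunits of oxidative phosphorylation, 31 proteasome subunits, 32 splicing factors or 44 enzymes of histone and DNA modification was called at 5 µM, where 0 to 4 members of each group passed the adjusted p alone. None of 29 genes of BRD9, BRD7 and the SWI/SNF subunits was called either. Of these only SMARCC2, a core subunit, passed the adjusted p, at 174, 170 and 168 CPM in DMSO and 124, 128 and 126 CPM at 5 µM, a log2 fold change of -0.44 ± 0.06 (SE, adjusted p = 0.00241).

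Among single genes, the largest rises and falls were mostly of genes at low levels. KRT6A, a keratin of stressed epithelium, was at 0.121, 0.123 and 0.307 CPM in DMSO and 2.83, 2.09 and 0.903 CPM at 5 µM. RRAD, a small GTPase that p53 can induce, was at 0.241, 0.021 and 0.142 CPM against 1.97, 0.794 and 1.07 CPM. IL24, a cytokine that can kill melanoma cells, was the rise at the highest level among them, at 16, 16.3 and 13.8 CPM in DMSO and 85.0, 86.9 and 87.7 CPM at 5 µM (log2 fold change 2.49 ± 0.12, SE, adjusted p = 3.62e-06). The others were TRIM49D2, CKMT1B, ZNF114, CCDC144CP, ATF3, ARC and MINOS1-NBL1. MINOS1-NBL1 is a read-through transcript that shares its sequence with MINOS1 and NBL1, so that its value depends on how RSEM split the reads. It had no counts in DMSO and 126, 147 and 121 counts at 5 µM, at least 41.9-fold higher at a floor of 3 counts per library, but no counts in 2 of the 3 libraries at 10 µM. The falls besides ITGA9 and BGN were CACNA1B, CDC42EP5, C10orf10, MGP, KIAA1755, ELF3, H19 and PPP1R1B. KIAA1755 was at 30.1, 29.2 and 29.6 CPM in DMSO and 7.69, 4.28 and 5.52 CPM at 5 µM, and H19, an imprinted long non-coding RNA, was at 5.31, 3.68 and 4.02 CPM against 0.833, 1.12 and 0.821 CPM. C10orf10, now called DEPP1, was at 7.41, 8.15 and 8.70 CPM against 0.986, 0.620 and 0.924 CPM.

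**Figure D4:**
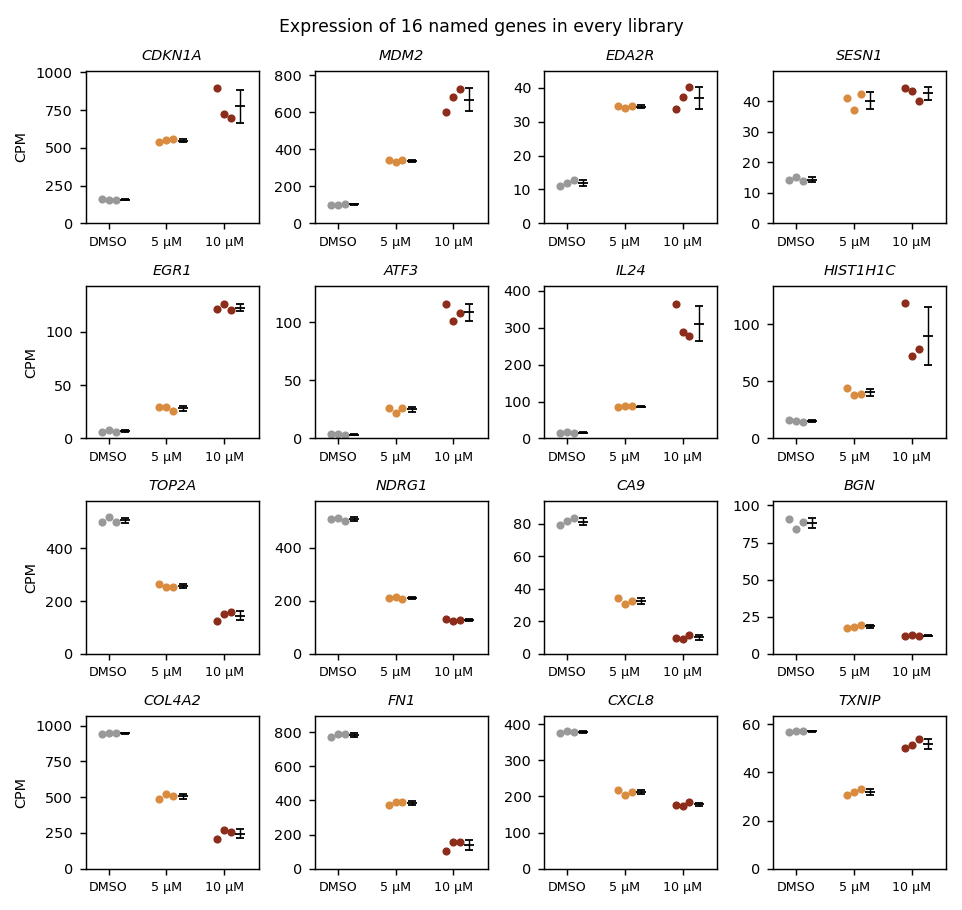
Expression of 16 named genes in CPM (vertical axes, starting at 0) in each library of the 3 groups, DMSO, 5 µM and 10 µM, with the mean and SD of each group in black. EDA2R and SESN1 are level between the doses, EGR1 and ATF3 keep rising, and TXNIP is lower at 5 µM than in both other groups.

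To see how much of the response at 5 µM had run its course, the libraries at 10 µM were set against those at 5 µM. Over all genes tested, 233 were higher at 10 µM than at 5 µM and 425 were lower, 1.42% and 2.59% of the genes tested. This comparison shares the 5 µM libraries with the first. Of the 352 genes upregulated at 5 µM, 67 rose further, 7 turned back and 72 had a 95% interval of the log2 difference between the doses within 0.5 on either side of 0. The corresponding numbers for the 447 downregulated genes were 142, 9 and 70, and the rest could not be placed. With 1 library left out the numbers ranged from 40 to 83, 5 to 8 and 49 to 103 for the upregulated genes, the lowest further and level counts being those without 5 µM replicate 3. For the downregulated genes they ranged from 111 to 162, 1 to 10 and 45 to 103, with 4, 1 and 2 turning back without 5 µM replicate 1, 2 and 3. Without 10 µM replicate 1 there were 103 level genes in each direction. In the fit of the 6 treated libraries alone the numbers were 45, 3 and 53, and 77, 1 and 39. At the higher dose 1407 genes rose and 1730 fell relative to DMSO, 8.57% and 10.5% of those tested. The median log2 fold change of the genes upregulated at 5 µM was 1.02 there and 1.33 at 10 µM, and that of the downregulated genes was -0.82 and -1.28. Both use the same DMSO libraries.

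The p53 targets moved further in some members and levelled off in others. Their upregulated members numbered 36 at 5 µM and 39 at 10 µM, and 8 of the 49 were higher at 10 µM than at 5 µM and 1 was lower. The difference between the doses was positive for 41 of the 49, with a median of 0.23 on the log2 scale. Genes that levelled off included EDA2R, SESN1, CYFIP2 and RRM2B among p53 targets, with log2 differences of 10 µM against 5 µM of 0.11, 0.08, 0.09 and 0.17 and intervals within 0.5 of 0. FAM198B, GAS6-AS1, ACTA2, HILPDA, COL1A1 and OLFML2A completed the 10 genes of this kind with the largest changes. ACTA2, smooth muscle actin, rose from 21.1 ± 1.52 to 54.8 ± 1.82 CPM (SD, n = 3 each), but 30.1% of its exonic length lies opposite exons of FAS and an antisense RNA. CDKN1A and MDM2 were higher again at 10 µM, at 900, 726 and 700 CPM and at 600, 682 and 726 CPM, with log2 differences of 0.50 ± 0.09 (SE, adjusted p = 0.0114) and 0.98 ± 0.08 (SE, adjusted p = 0.000115), of which the first is below the fold limit. BAX was at 345, 229 and 231 CPM at 10 µM, and the difference from 5 µM did not pass (adjusted p = 0.347).

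Several other gene groups had more members called at 10 µM, as did all genes tested. Against DMSO, 447 genes (2.72%) were lower at 5 µM and 1730 (10.5%) at 10 µM. Those higher numbered 352 (2.14%) and 1407 (8.57%). A larger count at 10 µM alone therefore does not set a group apart. Mitotic genes called lower numbered 8 at 5 µM and 37 at 10 µM, with medians of -0.47 and -1.04, and 16 of the 40 were lower at 10 µM than at 5 µM. Replication genes numbered 7 and 27, collagen chains 10 and 13, integrins 5 and 13, and matrix glycoproteins 12 and 21. Immediate early genes called higher numbered 4 and 12, histones 10 and 18, and ATF4 and unfolded protein response genes 2 and 14. Of these, 10 of 21 immediate early genes and 11 of 30 ATF4 genes were higher at 10 µM than at 5 µM. Hypoxia genes went from 12 to 18 with a median of -0.45 and -0.57, and 3 were lower at 10 µM than at 5 µM. NF-kB genes went from 6 to 8 lower, but 3 of 28 were higher at 10 µM than at 5 µM and their median was -0.42 at 5 µM and -0.30 at 10 µM. The genes with the smallest p between the doses were EGR1, ITGB4, STRA6, ATF3, GJA5, IL24, TGFBI, CA9, UCA1 and IGFBP5. EGR1 reached 121, 126 and 120 CPM at 10 µM, a log2 difference of 2.12 ± 0.11 from 5 µM (SE, adjusted p = 1.44e-05). IGFBP5, a secreted binding protein of insulin-like growth factors, was at 360, 370 and 360 CPM in DMSO, 182, 193 and 197 CPM at 5 µM and 20.1, 35.2 and 34.7 CPM at 10 µM. The mean of CA9 was 81.5 ± 1.97 CPM in vehicle, 32.5 ± 1.76 CPM at the low dose and 10.1 ± 1.52 CPM at the high dose (SD, n = 3 each).

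**Figure D5:**
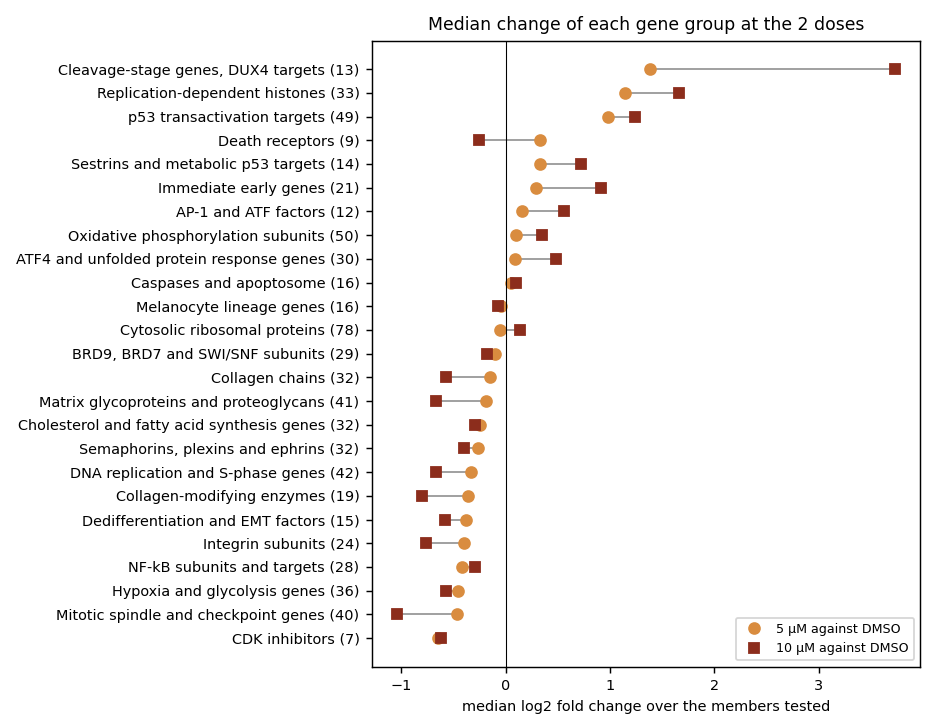
Median log2 fold change against DMSO (horizontal axis) over the tested members of 25 gene groups at 5 µM (orange circles) and 10 µM (dark squares), joined by a line; the DMSO libraries are common to both. The p53 targets stand at 0.98 and 1.24 and the mitotic genes at -0.47 and -1.04.

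A few genes were changed at 5 µM and moved back at 10 µM, 7 of the 352 upregulated and 9 of the 447 downregulated. Over all genes tested, 2.59% were lower and 1.42% higher at 10 µM than at 5 µM, so these numbers are close to the background. Both comparisons use the same 5 µM libraries, which favours a return among genes chosen by the first. Among those with at least 1 CPM, ATP6V0A4, ITGB7, NKILA, PCDH7, PCDHA4, SLC13A5 and ZNF488 were up at 5 µM and lower at 10 µM than at 5 µM, and INSIG1, LINC00664, LPAR6, NLRP3, NPTX2, SPP1 and TXNIP were down and then higher. TXNIP, which binds thioredoxin and limits glucose uptake, was at 56.7, 57.4 and 57.0 CPM in DMSO, 30.7, 31.9 and 32.9 CPM at 5 µM and 50, 51.5 and 53.8 CPM at 10 µM. Its log2 difference of 10 µM against 5 µM was 0.70 ± 0.07 (SE, adjusted p = 0.000391), and the 3 groups did not overlap. INSIG1, which holds SREBP in the endoplasmic reticulum, was at 25.8, 27.5 and 26.9 CPM, then 13.9, 13.2 and 13.8 CPM, then 29.9, 20.1 and 19.7 CPM, and without replicate 1 at 10 µM its log2 difference was 0.55 and short of the fold limit. PCDHA4, a protocadherin whose exons are shared in part with its neighbours, was at 8.29, 7.26 and 6.34 CPM, then 14.1, 12.9 and 12.4 CPM, then 7.66, 6.19 and 4.93 CPM. In the 18 alternative fits the move back was called every time for ATP6V0A4, ITGB7, PCDHA4 and TXNIP, but in 8 of 18 for NKILA and 9 of 18 for NPTX2.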

How the data were processed

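The authors deposited 1 table of RSEM expected counts per gene symbol, unscaled, for 9 strand-specific libraries. The submitters' processing notes name Bowtie2 2.1.0, RSEM 1.2.15 and hg38; the sources used here name neither the annotation nor the strand setting of the counting. Expected counts were rounded and tested with edgeR 4.0.16 in R 4.3.3 (TMM, filterByExpr, quasi-likelihood F test, 3 groups fitted together), and SE is the log2 fold change over the square root of F. The paper's general statement on statistics was not taken as the test across genes. CPM use TMM-scaled sizes. Coordinates and overlaps are from GENCODE release 29, and promoter motifs from RefSeq. Alternatives were other scalings and filters, DESeq2 1.42.0, limma-voom (limma 3.58.1), the 6 libraries alone, a replicate block, ribosomal RNA genes left out, and each library left out. Scripts were tested on simulated data. Members and lists were chosen with earlier results of these data known. Genes were named by rule: the 10 largest rises and falls called without overlap at 1 CPM or more, the 3 smallest p of each list, BRD9, BRD7 and genes of the study's text, the called gene with the highest CPM in each direction, and, between doses, the 10 smallest p, the 10 largest level genes and all reversals. Further called list members were named after their values were seen. P-values set a difference against the spread between libraries within groups, which was estimated over all 3 groups together and moderated across genes. Some genes that the rule names are not reported here.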

Additional observations from a re-analysis of the deposited data

How the results depend on the processing

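Of 135 named genes called at 5 µM, 107 were called in all 18 alternatives, and none reversed. Of 1098 list medians under the alternatives, 990 lay within 1 SD of the reported median and 1 changed sign by over 0.1. Genes higher and lower at 5 µM than in DMSO numbered 352 and 447, against 591 and 729 with the 6 libraries alone, 722 and 954 with the adjusted p alone, and 197 to 575 and 283 to 666 with 1 library left out, the highest without 10 µM replicate 1 and the lowest without DMSO replicate 2. Genes higher and lower at 10 µM than at 5 µM numbered 233 and 425, against 101 and 165 with the 6 libraries alone, 471 and 908 with the adjusted p alone, 118 to 320 and 258 to 572 with 1 library left out, and 418 higher with DESeq2. The cause was not tested beyond the change in libraries and limits. Median log2 fold changes at 5 µM with 1 library left out ranged from 0.89 to 0.98 for p53 targets, -0.48 to -0.44 for mitotic genes (-0.46 with upper-quartile factors), -0.24 to -0.11 for collagens, -0.47 to -0.42 for hypoxia genes and 1.05 to 1.27 for histones, whose median was 1.42 with the filter of 1 CPM in 3 libraries and 1.25 with the 6 libraries alone. Same-numbered libraries did not deviate together (correlations of -0.049 to 0.032), so no shift shared by them was seen. These correlations cannot tell whether same-numbered samples were cultured or processed together. With the replicate block, 288 and 399 genes were called higher and lower at 5 µM, and 176 and 380 between the doses. With 3 libraries a group, genes under 1 CPM had a median SE of 0.76 against 0.094 above 100 CPM, so small changes of low genes were not detectable.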

Other observations

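Genes of axon guidance and of the Wnt pathway also answered the low dose. Of 32 semaphorins, plexins and ephrins, 6 fell and 1 rose. SEMA6B, a transmembrane semaphorin, was at 85.1, 84.0 and 85.5 CPM in DMSO and 28.7, 28.3 and 25.4 CPM at 5 µM (log2 fold change -1.63 ± 0.14, SE, adjusted p = 0.000101), whereas SEMA6A rose with 1.02 ± 0.20 (SE, adjusted p = 0.0115), a call lost without DMSO replicate 2, 5 µM replicate 1 or 5 µM replicate 3. Of 18 Wnt targets and antagonists 3 fell and 1 rose. DKK1, a secreted Wnt antagonist, was at 119, 121 and 119 CPM against 251, 238 and 231 CPM, while its relative DKK3 was at 19.3, 18.2 and 17.8 CPM against 8.61, 8.93 and 8.89 CPM. The Wnt receptor gene FZD1 was at 76.9, 73.9 and 78.5 CPM against 37.6, 37.2 and 34.9 CPM. No library of one group reached the range of the other for these 5 genes. They were named by small p or as called, so this adds no separate evidence.

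Among 20 TGF-beta and BMP response genes 3 rose and 1 fell. PMEPA1, a feedback inhibitor of TGF-beta signalling, was at 250.7, 250.7 and 254.8 CPM against 382, 407 and 384 CPM, and ID2, an inhibitor of helix-loop-helix factors, rose with a log2 fold change of 2.08 ± 0.25 (SE, adjusted p = 0.000837). Of 24 NRF2 targets, 1 rose and 2 fell, 4.17% and 8.33% against 2.14% and 2.72% of all genes tested. HMOX1, which breaks down heme, rose from 7.95, 7.82 and 7.59 CPM to 19.9, 25 and 21.6 CPM. AKR1C2 and AKR1C3, which reduce ketosteroids, fell with log2 fold changes of -0.89 and -0.62. With any 1 DMSO or 5 µM library left out, 0 or 1 of the 24 fell.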
